A study of Mus musculus with 3 samples.

Results

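The genes described here are the matrix metalloproteinases (MMPs) *Mmp2*, *Mmp3*, *Mmp9*, *Mmp10*, *Mmp14* and *Mmp19* and the tissue inhibitors of metalloproteinases (TIMPs) *Timp1*, *Timp2*, *Timp3* and *Timp4*. They were taken by name as members of these families, without a threshold on any measured value but with earlier results of these data known. They make up 10 of the 31053 genes counted. All 10 had UMIs (unique molecular identifiers, each standing for one captured RNA molecule) in the kept cells. The iridocorneal angle and limbus were dissociated and sequenced cell by cell in 3 droplet libraries, 2 of control eyes and 1 of *Angpt1*ΔNC eyes. In the latter, angiopoietin-1 was deleted from cells derived from the neural crest. The study's aim was an atlas of this region, with the known tissue changes of these eyes as a guide to naming clusters.

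All mice were 6 weeks old and carried *Angpt1* flox/flox, on a mixed strain crossed for 2 generations onto ICR so that the animals were albino. *Angpt1*ΔNC mice carried Wnt1Cre+ in addition, a Cre recombinase active in the neural crest lineage, so cells outside that lineage kept the floxed gene. Each library pooled 4 to 6 eyes of 2 to 3 mice, digested with collagenase A for 2 hours at 37 °C and with trypsin for 25 minutes. The *Angpt1*ΔNC group is a single pool, so its spread between animals was not measured. The targeted gene was lost where it was expressed, with 2457, 2615 and 14 *Angpt1* UMIs in the stromal cells of control replicate 1, control replicate 2 and *Angpt1*ΔNC and 258, 246 and 0 in the mural cells.

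MMPs are zinc proteases that cut collagens, proteoglycans and other proteins of the extracellular matrix, and most are secreted as inactive precursors that another protease has to activate. TIMPs bind the active site of these proteases and block it, so that the balance of both families sets how fast matrix is turned over. In the trabecular meshwork, the filter through which aqueous humor reaches Schlemm's canal, MMP activity is known to lower the resistance to outflow. Both families are read here as RNA, which does not measure secretion, activation or inhibition of the proteins.

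The deposited table gave 35 cell labels, of which 34 held at least 20 cells in both controls and were compared. A level per label is the mean over its cells of the UMIs per 10,000 UMIs of the cell. Where 3 values stand together they belong to control replicate 1, control replicate 2 and *Angpt1*ΔNC, in this order. The labels were made by the authors from the expression of these same cells, so differences between labels are a description with no test. Several members also rank among the 10 genes that set a label apart, *Mmp3* in TM11, *Mmp10* in cluster 5 and *Timp1* in TM7, and their peaks there are part of what made those labels. Among marker genes checked for the labels used as landmarks, *Krt12* was highest in cluster 5 (corneal epithelium), *Krt14* in cluster 4 (limbal epithelium), *Rgs5* in cluster 20 (pericytes), *Acta2* in cluster 19 (smooth muscle), *Ccl21a* in SC (Schlemm's canal), *Cd3e* in cluster 22 (T cells) and *C1qa* in cluster 25 (myeloid cells). Other markers of the same lists peaked elsewhere, *Krt5* and *Krt15* in cluster 3, *Pax6* in cluster 7, and *Myh11* and *Des* in cluster 21, so the landmarks rest on part of their markers. The TM labels were broader than trabecular meshwork, and so is the stromal class made of them below. *Myoc* and *Chil1* peaked in TM4, the keratocyte genes *Kera* in TM1, *Lum* in TM5 and *Aldh3a1* in cluster 5, and the fibroblast gene *Clec3b* in TM10. Among markers of the corneal endothelium, *Cldn10*, *Cdh2* and *Slc4a11* peaked in TM2, but *Atp1b1* peaked in cluster 1. Cluster 23, a myeloid label, held the highest levels of the dendritic markers *Flt3*, *Cd209a* and *H2-Aa*, while *S100a9* and *S100a8* led its own top genes.

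For tests between genotypes, the UMIs of each library were summed over 5 classes of labels, namely stromal (TM1 to TM11), endothelial (SC, LEC and EC2 to EC4), epithelial (clusters 4 and 5), mural (clusters 19, 20 and 21) and myeloid cells (clusters 23, 24 and 25). A class level is the summed UMIs of a gene per 10,000 summed UMIs of the class. Each class was fitted with edgeR over all genes that passed its filter on low counts, and a gene was called at an adjusted p under 0.05. A gene that passed this filter through 1 genotype alone was in part chosen for its difference, so its call says little by itself, and this is noted where it applies. A p-value here sets a difference against the spread between the 2 control pools, with 1 residual degree of freedom for each gene. The fit shares its estimate of this spread across genes, so a small p does not rest on measured spread of that gene alone. The 1 *Angpt1*ΔNC pool adds no spread. The depth of a class sum ranged from 1674775 UMIs, in the mural cells of *Angpt1*ΔNC, to 22854928 in the stromal cells of control replicate 2.

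The pools also differed in sex. *Xist* stood at 0.0390 and 0.0249 UMIs per 1,000,000 in the controls and at 652 in *Angpt1*ΔNC. It was found in 3 and 2 kept cells of the controls and in 58.7% of those of *Angpt1*ΔNC. Cells typed as male made up 30.6% of the stromal cells of *Angpt1*ΔNC against 69.5% and 74.7% in the controls. Nearly all other control cells had neither Y-linked nor *Xist* UMIs, so they were not typed as female. Female-typed cells of *Angpt1*ΔNC thus had almost no control counterpart, although the paper states that both sexes were pooled. Each comparison was therefore repeated on the summed UMIs of male-typed cells alone, and the outcome is given where it changed a call. The kept cells of control replicates 1 and 2 shared 25 barcodes, those of control replicate 1 and *Angpt1*ΔNC 14, and those of control replicate 2 and *Angpt1*ΔNC 13. The median depth of kept cells was 6329.5 and 6393.5 UMIs in the controls and 7444 in *Angpt1*ΔNC, whose cells were thus read deeper.

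**Figure D1:**
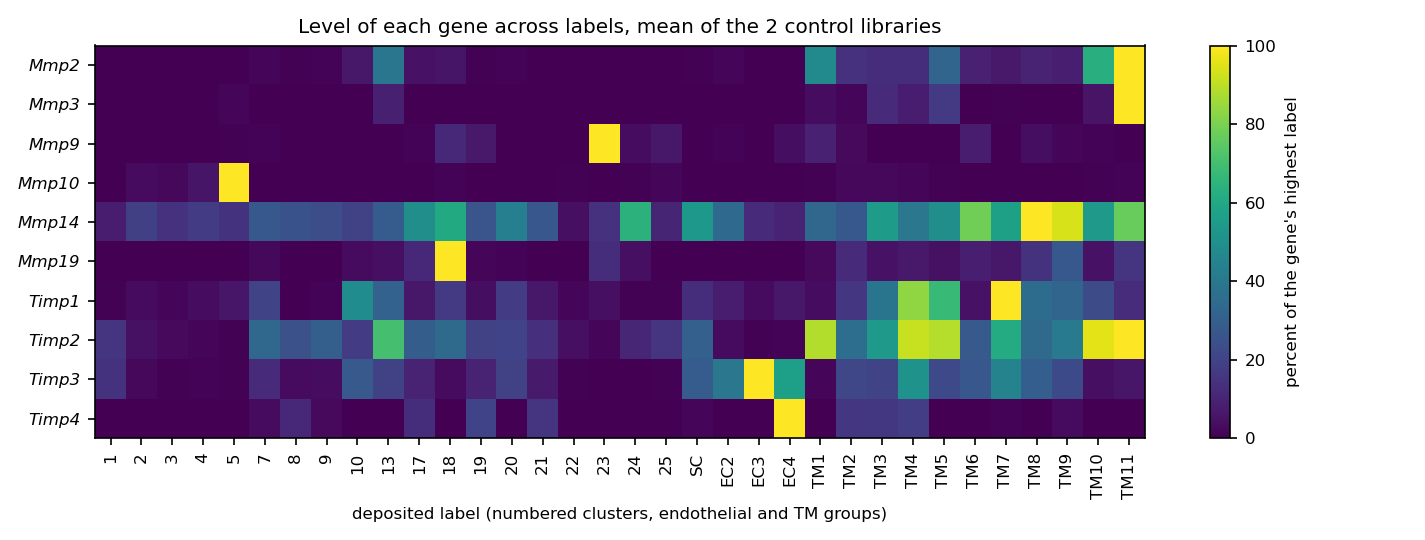
Level of each of the 10 genes (rows) in each of 34 deposited labels (columns), as the mean of the 2 control libraries and in percent of the gene's own highest label. The peaks of *Mmp3*, *Mmp10* and the rare *Mmp9* were 1792, 387 and 801 times their median label. Those of *Mmp14* and *Timp2* were 3.53 and 3.78 times theirs, and colors do not compare levels between genes.

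The stromelysin *Mmp3*, which degrades proteoglycans, fibronectin and basement membrane proteins and activates other MMP precursors, had the most concentrated pattern of the stromal proteases. In TM11 its level was 74.0 and 41.7 UMIs per 10,000 in the controls and 119 in *Angpt1*ΔNC. The next labels in the controls were TM5 (6.26 and 13.2), TM3 (6.65 and 7.68), cluster 13 (3.25 and 7.02) and TM4 (4.64 and 4.45). The controls separated TM11 from TM5, while TM5, TM3 and cluster 13 each overlapped with the next in order, and TM4 was separate from TM10. The median label had a control mean of 0.0323, so the peak was 1792 times the median.

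Stromal *Mmp3* rose in *Angpt1*ΔNC. The class level was 3.00, 3.01 and 11.5 UMIs per 10,000, so both controls were nearly equal and *Angpt1*ΔNC lay outside their range. The log2 change was 1.94 ± 0.14 (standard error, adjusted p = 0.000143). Of the 10 members, all 10 passed the filter in stromal cells and 3 were called, all of them higher, against 8.97% of the 13942 genes tested in this class. Male-typed cells gave 3.25, 3.27 and 11.1 UMIs per 10,000, and the female-typed cells of *Angpt1*ΔNC gave 11.3.

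Label by label, *Mmp3* differed most, relative to the controls, in labels where it was low or moderate. TM10, which carried the fibroblast markers, had 3.04 and 3.1 in the controls and 18.6 in *Angpt1*ΔNC, which is 6.06 times the control mean. TM4, with the highest *Myoc*, had 4.64, 4.45 and 17.6, and TM1, with the highest *Kera*, had 1.99, 2.04 and 8.75. In these labels the controls lay close together and *Angpt1*ΔNC far above both. Their own markers differed too, since *Myoc* in TM4 was 62.8, 59.4 and 23.2, *Chil1* there 51.3, 56.0 and 27.9, and *Kera* in TM1 65.7, 59.6 and 15.8, so the cells under a label were not alike in both genotypes. TM7 had 0.137, 0.380 and 4.15, TM8 had 0.107, 0.0458 and 1.77, and TM9 had 0 (0 of 204 cells, allowing a share of up to 1.47%), 0.0438 and 1.56. TM5 stood apart, since its *Angpt1*ΔNC level of 13.7 was close to the 13.2 of control replicate 2.

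The share of cells with an *Mmp3* UMI moved with the level. In TM10 it was 22.7% (95% Clopper-Pearson interval 17 to 29.2), 18% (12.5 to 24.6) and 58.5% (51.1 to 65.6), at median depths of 6622, 6645 and 8135 UMIs per cell. These intervals, and the limits given beside a 0, which are 3 counts over the number of cells and not interval ends, cover counting error only. T cells (cluster 22), which should lack *Mmp3*, gave shares of 2.25%, 0% (0 of 133 cells, which allows up to 2.26%) and 0.952%, at depths of 2267, 2500 and 2531. Whether these UMIs came from free RNA was not tested. After thinning every cell to 2000 UMIs, the TM10 shares were 16.3%, 14.0% and 47.6%. The positive cells of all labels also carried more, with a mean of 15.9, 16.8 and 25.8 *Mmp3* UMIs in a positive cell.

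Across all labels, *Mmp3* was above both controls in 26 of the 34 and below both in 3. Among all pairs of a gene and a label, *Angpt1*ΔNC was above both controls in 31.6%, the median gene was so in 10 labels, and 3.92% of the 4826 genes compared reached the count of *Mmp3*. Part of these 26 labels were at background level, such as the melanocytes of cluster 8 with 0.00604, 0.00645 and 0.0279 UMIs per 10,000 in the 3 libraries. Whole libraries held 90.5, 112 and 295 *Mmp3* UMIs per 1,000,000, and the part of free RNA in the low labels was not tested.

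The mix of stromal labels shifted as well. TM11 was 0.963% and 1.38% of the stromal cells in the controls and 2.52% in *Angpt1*ΔNC, and TM5 was 1.93%, 3.13% and 6.47%, whereas TM7, low in *Mmp3*, was 23.8%, 22.2% and 8.94%. With equal weight for each of the 11 stromal labels the *Mmp3* means were 8.91, 6.66 and 18.7 UMIs per 10,000, a log2 change of 1.25, so the rise was smaller but had the same direction. Dissociation stress genes, a list of 12 that enzymatic digestion is known to induce, were read in the same cells. They summed to 96.4, 83.4 and 71.8 UMIs per 10,000 of the stromal class, with *Jund* the most abundant and none at 0. Of the 12, 0 were called higher and 1 lower (*Junb*, by a log2 change of −0.88). The part of dissociation in the change of *Mmp3* was not tested.

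In the epithelial class the same gene moved the other way. Cluster 5, the corneal epithelium, had 0.761 and 1.28 *Mmp3* UMIs per 10,000 in the controls and 0.260 in *Angpt1*ΔNC, and over the epithelial class the levels were 0.532, 0.699 and 0.154. *Angpt1*ΔNC was below both controls, with a log2 change of −1.90 ± 0.24 (adjusted p = 0.00600). In male-typed cells the levels were 0.519, 0.774 and 0.273, the log2 change −1.11 and the adjusted p 0.0867, so the call was lost there. With equal weight for both clusters the means were 0.524, 0.685 and 0.189, and the log2 change after adding 0.1 was −1.28. Only cluster 5 of the pair was below both controls, as cluster 4 lay between them (0.288, 0.0856 and 0.119). Outside the class, cluster 3, with the highest *Krt5*, was above both controls at a very low level (0.00586, 0.00787 and 0.0245), and so was cluster 2, with the highest *Mki67* (0.0106, 0 among 41 cells, allowing a share of up to 7.32%, and 0.128). The test of whether the genotype difference varied between the 5 classes called *Mmp3* (adjusted p = 1.77e-07), 1 of 4 members called among 10, against 10.3% of the 14414 genes tested. This fit has library and class as terms and 4 residual degrees of freedom. Its 15 class sums come from 3 pools, all 5 sums of *Angpt1*ΔNC from the same animals, so the sums are not independent and spread between *Angpt1*ΔNC animals is not in its p-values.

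*Mmp10*, the stromelysin most closely related to *Mmp3*, was a gene of the corneal epithelium. The epithelial class held 97.2% of its control UMIs and 10.4% of the control cells. Cluster 5 had 3.98, 2.65 and 1.87 UMIs per 10,000, and cluster 4 had 0.288, 0.0895 and 0.0313. The controls separated cluster 5 from cluster 4, whereas cluster 4 overlapped with the labels after it. The share of positive cells in cluster 5 was 76.0% (72.3 to 79.4), 65.9% (61.6 to 70.1) and 50% (43.9 to 56.1), at depths of 21528, 18747 and 20189, against 0% (0 of 89 cells, allowing up to 3.37%), 0.752% and 0% (0 of 105 cells, allowing up to 2.86%) in the T cells.

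Epithelial *Mmp10* fell in *Angpt1*ΔNC. Its class level was 2.74, 1.66 and 0.859 UMIs per 10,000, below both controls, although the controls lay far apart. The log2 change was −1.24 ± 0.26 (adjusted p = 0.0330). Of the 9 members tested in epithelial cells 3 were called, 1 higher and 2 lower, against 5.72% of the 12341 genes tested. The call was lost with library totals in place of TMM factors (adjusted p = 0.0651) and in male-typed cells, which gave 2.83, 1.80 and 1.41 UMIs per 10,000 and a log2 change of −0.56 (adjusted p = 0.216). Female-typed cells of *Angpt1*ΔNC were lower still, at 0.570.

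Cluster 5 was also a smaller part of the epithelial class in *Angpt1*ΔNC, at 29.6% of its cells against 58.1% and 49.9% in the controls. Equal weights for clusters 4 and 5 gave *Mmp10* a log2 change of −0.82. Dissociation stress genes fell in the same cells, with sums of 76.7, 71.9 and 42.8 UMIs per 10,000, *Ier3* the most abundant and none at 0. Of the 12 genes, 6 were called lower, among them *Fos* (log2 change −1.57), *Dusp1* (−0.86) and *Fosb* (−0.73), and the median of the list was −0.65 against −0.01 for all genes. *Fos* and *Fosb* encode subunits of the transcription factor AP-1, and the part of these changes in those of *Mmp3* and *Mmp10* was not tested. In stromal cells *Mmp10* was near the floor of detection, with 70, 53 and 100 UMIs, and its log2 change of 1.08 missed the threshold (adjusted p = 0.0620) but passed it in male-typed cells (1.22, adjusted p = 0.0213). The difference between classes was called for *Mmp10* as well (adjusted p = 0.000493).

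*Mmp3* and *Mmp10* lie close to each other, with *Mmp1a* between them. In build GRCm38, *Mmp3* (ENSMUSG00000043613) lies on chromosome 9 from 7445822 to 7455975 and *Mmp10* (ENSMUSG00000047562) from 7502352 to 7510240, both on the plus strand and 46.4 kb apart. They belong to a cluster of 10 MMP genes over 427 kb. The transcripts of both genes shared 202 words of 31 bases, 11.4% of those of *Mmp3* and 11.9% of those of *Mmp10*, and no other pair of members shared any. Within the last 500 bases of each transcript they shared 0 words.

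The other genes of this cluster peaked in several tissues. *Mmp13*, a collagenase, peaked in cluster 5 with 5.25, 2.59 and 2.12 UMIs per 10,000. *Mmp12*, the macrophage elastase, peaked in TM3 with 3.27, 2.11 and 3.21. *Mmp8* peaked in cluster 23 (0.101, 0.155 and 0.0981). *Mmp27*, *Mmp7*, *Mmp20* and *Mmp1b* had at most 133, 5, 1 and 1 UMIs in a library, and *Mmp1a* was not analysed here.

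Promoters from RefSeq (build GRCm38.p6, 250 bases before to 50 after the start) were found for 7 of the 10 members. *Mmp2*, *Mmp9* and *Mmp19* had no entry in the set of 32851 promoters used here. The AP-1 motif TGAGTCA, read as TGACTCA on the other strand, occurred in 1709 of 32851 promoters (5.20%). It occurred once in *Mmp3*, 46 bases before the start, once in *Mmp10*, 63 bases before it, and once in *Mmp13* of the same cluster, 35 bases before it, and not in *Mmp14*, *Mmp12* or any of the 4 TIMPs. The 3 promoters shown are those of this cluster in which the motif was found, so they were picked on the motif. *Mmp12*, without it, had an epithelial log2 change of −2.11 and *Mmp13* one of −1.24, neither called. *Mmp3*, with the motif, fell in epithelial cells and rose in stromal cells. The part of the motif in these changes was not tested. Capitals mark the motif in chr9:7445572-7445871, chr9:7502092-7502391 and chr9:7272264-7272563, all on the plus strand. A match describes letters and not a bound site.
Mmp3: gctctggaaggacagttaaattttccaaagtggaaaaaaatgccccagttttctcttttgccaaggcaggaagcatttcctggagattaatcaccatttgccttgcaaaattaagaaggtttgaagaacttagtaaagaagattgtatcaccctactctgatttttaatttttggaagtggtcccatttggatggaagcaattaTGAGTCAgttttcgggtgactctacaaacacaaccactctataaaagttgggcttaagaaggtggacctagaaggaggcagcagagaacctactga
Mmp10: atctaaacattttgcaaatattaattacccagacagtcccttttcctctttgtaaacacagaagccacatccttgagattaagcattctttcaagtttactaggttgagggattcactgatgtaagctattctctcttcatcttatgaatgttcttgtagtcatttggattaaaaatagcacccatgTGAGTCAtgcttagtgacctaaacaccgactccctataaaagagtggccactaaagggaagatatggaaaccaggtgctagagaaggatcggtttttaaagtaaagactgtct
Mmp13: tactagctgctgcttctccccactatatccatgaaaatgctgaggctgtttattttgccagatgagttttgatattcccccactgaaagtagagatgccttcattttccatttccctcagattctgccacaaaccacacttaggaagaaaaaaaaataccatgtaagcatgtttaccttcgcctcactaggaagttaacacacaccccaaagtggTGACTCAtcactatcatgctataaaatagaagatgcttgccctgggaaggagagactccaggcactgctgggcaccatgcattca

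*Mmp2*, a gelatinase that cuts denatured collagen and basement membrane collagen, was a gene of the fibroblast-like stroma. The stromal class held 81.9% of its control UMIs. TM11 had 9.58, 9.96 and 8.53 UMIs per 10,000, TM10 had 6.16, 6.13 and 8.61, and TM1 had 4.49, 4.76 and 6.74. Cluster 13 (3.73, 3.93 and 3.83) and TM5 (3.38, 3.00 and 4.64) followed. Each of these labels was separate from the next in the controls, so the order of the first 5 was the same in both.

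Stromal *Mmp2* rose in *Angpt1*ΔNC, from class levels of 1.97 and 1.77 UMIs per 10,000 to 3.02, above both controls. The log2 change was 0.70 ± 0.14 (adjusted p = 0.0199), and in male-typed cells it was 1.18, with levels of 2.01, 1.78 and 4.23. Within labels the difference was uneven. TM4 had 2.08 times its control mean (1.24, 1.32 and 2.65), while TM11, the peak, was below both controls and cluster 13 lay between them. With equal weight for each stromal label the log2 change shrank to 0.28. Over all labels *Mmp2* was above both controls in 14 and below both in 11. Its difference between classes was not called (adjusted p = 0.427).

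*Mmp9*, the other gelatinase, known mainly from neutrophils, macrophages and wounded epithelium, was rare. Control replicate 1 held 70 UMIs in 39 cells, control replicate 2 held 75 in 47 and *Angpt1*ΔNC held 249 in 55. In the controls its highest label was cluster 23, with 0.398 and 0.741 UMIs per 10,000, separate from all other labels, and *Angpt1*ΔNC had 0.150 there. Those levels rest on 5, 15 and 2 UMIs, and in good part on shallow cells. Among cells of cluster 23 with at least 2000 UMIs the control levels were 0.229 and 0 (0 of 124 cells, allowing up to 2.42%), and as summed UMIs they were 0.108 and 0.158, so the separation does not hold in the deeper cells. The T cells had 0 UMIs in all 3 libraries, with floors from 2.26% to 3.37% of cells.

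In stromal cells *Mmp9* was called higher, with 26, 23 and 97 UMIs and class levels of 0.0142, 0.0101 and 0.0622 per 10,000 (log2 change 2.37 ± 0.32, adjusted p = 0.00329). The call rested on few cells. In *Angpt1*ΔNC, 22 cells of any label with at least 4 UMIs held 195 of the 249 UMIs, of which 6 cells of TM2, the label with the corneal endothelial markers, held 74 and 6 cells of cluster 17 held 48, whereas 2 and 5 such cells were found in the controls. Of the 22 cells, 16 were typed as female and 3 as male. The 595 male-typed stromal cells of *Angpt1*ΔNC held 0 UMIs, which allows a share of up to 0.504%, against 20 and 18 UMIs in those of the controls. The fit of male-typed cells called *Mmp9* lower (adjusted p = 0.0404), a call from a 0 and few UMIs that shows only that the higher level was not found in these cells. With the labels weighted equally the stromal means were 0.0171, 0.00981 and 0.0305, a log2 change of 0.20 after adding 0.1. Epithelial *Mmp9*, with 7, 1 and 28 UMIs, and mural *Mmp9*, with 9, 13 and 0, each passed the filter through 1 genotype alone and were not called (adjusted p = 0.0718 and 0.174).

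*Mmp14*, a protease anchored in the cell membrane that activates the *Mmp2* precursor together with TIMP2, was spread most evenly over the labels. Its highest label was 3.53 times its median label, the lowest such ratio of the members whose median was above 0. TM8 had 1.85, 1.52 and 0.927 UMIs per 10,000, and TM9 had 1.60, 1.58 and 0.863. These first labels overlapped in the controls. TM6 (1.45, 1.19 and 0.882) and TM11 (1.29, 1.29 and 0.797) followed and overlapped too, as did cluster 24, a myeloid label, with cluster 18 (1.12, 1.05 and 1.06 against 1.08, 0.968 and 0.750).

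*Mmp14* was below both controls in 25 of the 34 labels and above both only in cluster 21. Among all pairs of a gene and a label, 39.7% were below both controls, the median gene was so in 13 labels, and 9.01% of genes reached the count of *Mmp14*. In TM8 the share of positive cells was 51.6% (47.5 to 55.7), 45.8% (41.8 to 49.8) and 36.8% (29.2 to 44.9), at depths of 3933, 4282.5 and 4846. The T cells gave 1.12%, 3.76% and 0.952%. In the stromal class the levels were 1.07, 0.795 and 0.578, with *Angpt1*ΔNC below both controls, and the log2 change of −0.68 ± 0.18 missed the threshold (adjusted p = 0.0523). In male-typed stromal cells, at 1.04, 0.787 and 0.555, it was called (−0.70, adjusted p = 0.0119).

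In endothelial cells *Mmp14* was called lower. The class levels were 0.419, 0.378 and 0.180 UMIs per 10,000 (107, 116 and 33 UMIs), with *Angpt1*ΔNC below both controls and a log2 change of −0.97 ± 0.27 (adjusted p = 0.0117). Of the 6 members tested here 2 were called, both lower, against 12.9% of the 9660 genes tested. The other was *Timp4*, which passed the filter through the controls alone. DESeq2 gave the same direction but no call (adjusted p = 0.546). SC, the Schlemm's canal label, had the highest control mean of the endothelial labels (0.920, 0.884 and 0.375), although EC2 was above it in control replicate 1 and *Angpt1*ΔNC (0.935, 0.224 and 0.435). In addition, *Angpt1*ΔNC had 15 SC cells against 46 and 63, so that SC was 7.18% of its endothelial cells against 15.6% and 19.3%. The canal marker *Ccl21a* was 73.6, 40.3 and 5.54 in SC, so the remaining cells also carried less of their defining gene. LEC grew from 1.02% and 0.306% of the class to 5.74%, with 3, 1 and 12 cells. With equal weight for each of the 4 other labels the log2 change was −0.73.

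*Mmp19*, a secreted protease that cuts basement membrane components, peaked in cluster 18, which the study left unnamed. Its level was 5.19, 4.76 and 4.67 UMIs per 10,000, and 58.1%, 49.7% and 58.6% of the cells were positive. The T cells gave 1.12%, 0% (0 of 133 cells, allowing up to 2.26%) and 0.952%. TM9 followed with 1.07, 1.67 and 1.39, separate from cluster 18 in the controls, and TM11, TM8, cluster 23 and the labels after them overlapped. TM8 and TM6 were above both controls, at 2.14 times the control mean each.

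Whole libraries held 24, 25.3 and 46.1 *Mmp19* UMIs per 1,000,000, but no class fit called it. Its stromal levels were 0.398, 0.499 and 0.522 (log2 change 0.22, adjusted p = 0.492, and −0.04 in male-typed cells). Cluster 18, which belongs to none of the 5 classes, had 301, 165 and 534 cells in the 3 libraries, and its level per cell was slightly below both controls. In mural cells it had 31, 26 and 1 UMIs and was not called (adjusted p = 0.0754). Library totals gave an adjusted p of 0.0371, but mural *Mmp19* passed the filter through the controls alone, so that call says little.

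**Figure D2:**
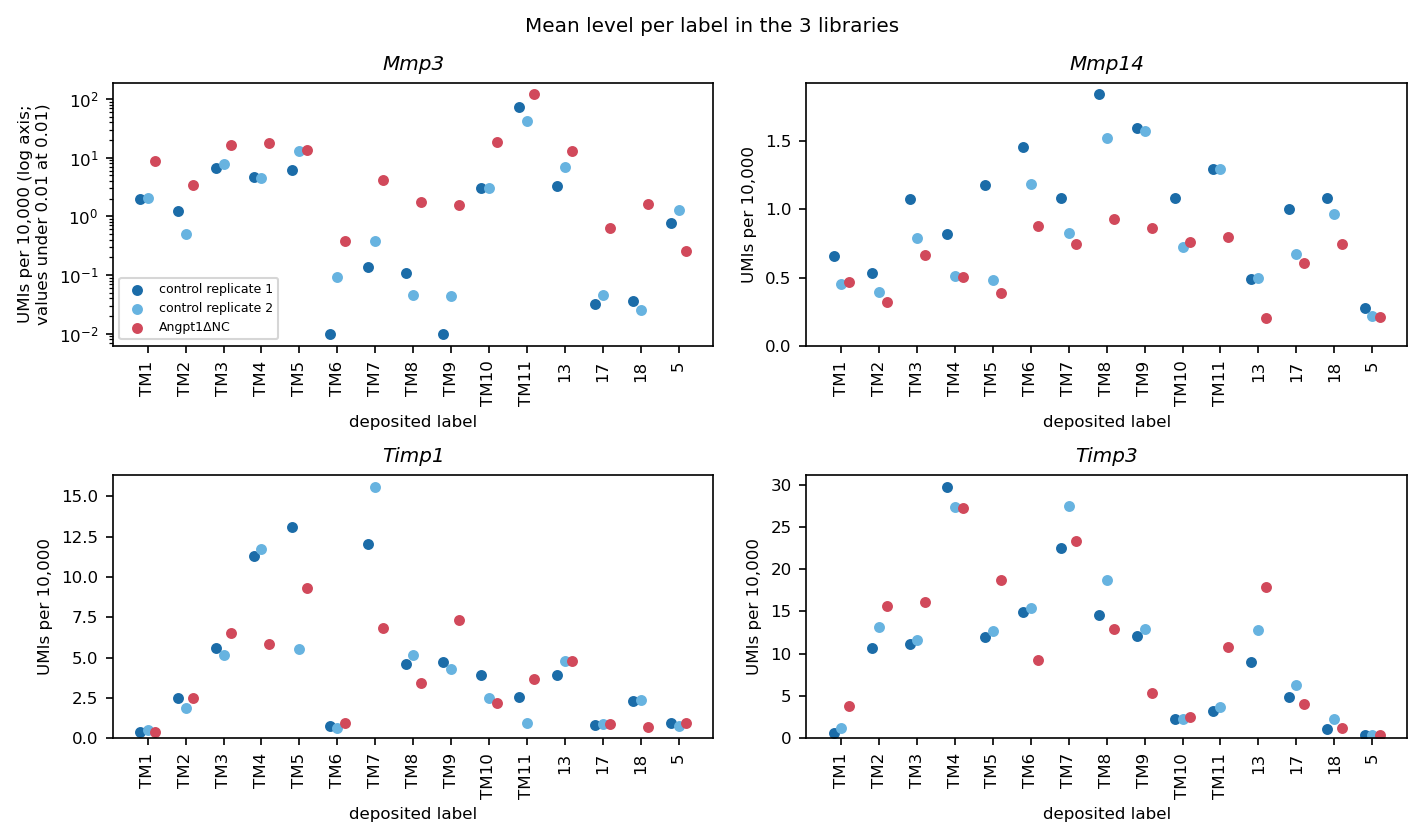
Mean level in UMIs per 10,000 of *Mmp3* (log axis), *Mmp14*, *Timp1* and *Timp3* in 15 labels (stromal TM1 to TM11, clusters 13, 17 and 18, and corneal epithelium, cluster 5), with 1 point for each library. *Mmp3* of *Angpt1*ΔNC lay above both controls in each label drawn but cluster 5, while *Timp1* was lower in TM4 and TM7 and higher in TM9.

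Of the inhibitors, *Timp1*, which blocks most secreted MMPs and is encoded on the X chromosome, was highest in stromal labels. TM7 had 12, 15.6 and 6.83 UMIs per 10,000. TM4 had 11.3, 11.7 and 5.85, so that *Angpt1*ΔNC had 0.495 and 0.508 times the control mean in these labels. TM5 had 13.1, 5.53 and 9.30, with controls too far apart to place it in the order, and cluster 10 had 6.34, 7.10 and 6.02. In TM9 the direction was the opposite, with 4.69, 4.28 and 7.32, and TM3, TM6 and TM11 were above both controls as well. Over all labels *Timp1* was above both controls in 14 and below both in 10, with the lowest ratio to the control mean in cluster 18 (2.32, 2.39 and 0.701).

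In TM7 the share of *Timp1* positive cells was 70.3% (66.7 to 73.8), 75.2% (72.0 to 78.3) and 60.9% (53.2 to 68.2), at depths of 5718, 6201 and 6722.5. The T cells gave 1.12%, 4.51% and 3.81%, and *Angpt1*ΔNC was lower in TM7 although its cells were deeper. Over the stromal class the levels were 6.74, 7.01 and 5.13, with *Angpt1*ΔNC below both controls, but the log2 change of −0.42 ± 0.15 was not called (adjusted p = 0.122). In male-typed cells, with 6.70, 7.01 and 3.90, it was called (−0.80, adjusted p = 0.00153), while the female-typed stromal cells of *Angpt1*ΔNC had 6.22. TM7, the label with the highest *Timp1*, was also a smaller part of the stroma (8.94% against 23.8% and 22.2%), and equal label weights gave a log2 change of −0.24.

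Mural *Timp1* rose in *Angpt1*ΔNC. The class levels were 1.41, 1.34 and 3.37 UMIs per 10,000, with close controls and *Angpt1*ΔNC above both, and the log2 change was 1.49 ± 0.14 (adjusted p = 1.47e-06). Of the 9 members tested 2 were called, both higher, against 16.4% of the 11606 genes tested. Pericytes (cluster 20) had 2.62, 2.28 and 4.2, and the vascular smooth muscle of cluster 21 had 0.496, 1.29 and 2.45, so both were above both controls, while the smooth muscle of cluster 19 was below them by a small margin (0.552, 0.524 and 0.510). Male-typed cells alone gave 1.54, 1.42 and 3.30 and kept the call (adjusted p = 8.87e-05).

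The mural class changed its makeup, with cluster 19, low in *Timp1*, at 37.4% and 42.1% of the controls' cells and 15.7% of those of *Angpt1*ΔNC, and cluster 20 at 44.5%, 43.2% and 64.3%. Equal label weights gave *Timp1* a log2 change of 0.84. Scaling mattered in this class. Using library totals in place of TMM factors moved the median log2 change of all mural genes by −0.19, and the part of the called genes that was higher went from 55.8% to 29.8%, yet *Timp1* remained called (1.29). The same shift was −0.17 in endothelial cells, where the higher part went from 62.7% to 35.1%, and −0.10 in epithelial cells, where it went from 49.2% to 37.5%. The genotype difference of *Timp1* varied between classes (adjusted p = 0.0148).

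*Timp2*, which inhibits MMPs but also links the *Mmp2* precursor to the membrane protease that activates it, was found in most cells. Whole libraries held *Timp2* UMIs in 77.3%, 78.7% and 79.5% of their cells. TM11 had 23.1, 18.6 and 19.9 UMIs per 10,000, TM10 had 20.2, 19.8 and 20.9, and TM4 had 19.2, 19 and 21.7. The first 2 labels overlapped in the controls, as did TM4, TM5 and TM1, and cluster 13 was separate below them. Stromal levels were 13, 12.8 and 15.4, with *Angpt1*ΔNC above both controls by a log2 change of 0.26 that was not called (adjusted p = 0.286) except in male-typed cells (0.51, adjusted p = 0.0285).

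Epithelial *Timp2* rose in *Angpt1*ΔNC from a low level. The class levels were 0.170, 0.189 and 0.468 UMIs per 10,000, with *Angpt1*ΔNC above both controls, and the log2 change was 1.48 ± 0.17 (adjusted p = 0.00454). Both clusters were above both controls, cluster 4 with 0.375, 0.299 and 0.582 and cluster 5 with 0.104, 0.136 and 0.271. The share of positive cells in cluster 5 was 16.9% (13.9 to 20.2), 21.4% (17.9 to 25.2) and 42.2% (36.3 to 48.4), at depths of 21528, 18747 and 20189. T cells, at 2267, 2500 and 2531, gave 14.6%, 17.3% and 23.8%. Their *Timp2* level of 0.739, 0.896 and 1.29 UMIs per 10,000 lay above that of EC3 (0.0636, 0.117 and 0.0990). The T cell shares therefore set no free RNA level for *Timp2*, and the part of free RNA in the epithelium was not tested. Cluster 4, with the higher level, grew from 41.9% and 50.1% of the class to 70.4%. Equal weights gave means of 0.240, 0.217 and 0.427, with a log2 change of 0.68 after adding 0.1. The difference between classes was called for *Timp2* (adjusted p = 2.78e-05).

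Within the endothelium *Timp2* separated Schlemm's canal from blood vessels. SC had 6.39, 6.43 and 2.82 UMIs per 10,000, whereas EC3 had 0.0636, 0.117 and 0.0990. The share of positive cells was 87.0%, 90.5% and 80.0% in SC and 5.93%, 12.7% and 10.3% in EC3, at depths of 8895, 6943 and 6505 and of 7364, 10749 and 7507. EC3 was thus below the T cells, although its cells were deeper. EC2 and EC4 were above both controls, with 0.611, 0.581 and 1.24 and with 0.155, 0.300 and 0.842, so that the class fit, with opposite differences in its labels, gave a log2 change of −0.24 (adjusted p = 0.396).

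*Timp3*, which stays bound to the matrix and also inhibits ADAM and ADAMTS proteases, was highest in endothelium. EC3 had 51.9, 59.9 and 40.0 UMIs per 10,000, and 100%, 100% and 96.6% of the cells were positive. EC4 had 25.3, 37.9 and 31.1, and TM4, the first stromal label, had 29.7, 27.4 and 27.2. EC3 was separate from EC4 in the controls, while EC4, TM4, TM7, EC2, TM8, SC and cluster 10 each overlapped with the next, and TM6 was separate from TM9. The endothelium held 18.8% of the control UMIs of *Timp3* and 3.23% of the cells. T cells gave shares of 6.74%, 3.76% and 9.52%.

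Stromal *Timp3* kept its class level, at 14.8, 17 and 14.8 UMIs per 10,000 (log2 change −0.11, adjusted p = 0.737), but single labels differed in both directions. TM9 had 12.1, 12.9 and 5.40, below both controls. TM1 had 0.661, 1.21 and 3.78, and TM11 had 3.17, 3.67 and 10.7, both above both controls. In SC the level was 17.2, 15.1 and 8.85. Mural *Timp3* was called higher, with 5.94, 7.99 and 9.94, where the controls differed from each other about as much as *Angpt1*ΔNC from the nearer one (log2 change 0.71 ± 0.16, adjusted p = 0.00479). DESeq2 gave no call there (adjusted p = 0.349), pericytes had 8.38, 13.1 and 13.2, and equal label weights gave 0.28. Endothelial *Timp3* had 36.2, 41.7 and 31.9 and was not called (log2 change −0.12, adjusted p = 0.674, and 0.00 in male-typed cells).

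*Timp4*, the inhibitor with the most restricted tissue pattern, was close to the limit of detection. Control replicate 1 held 76 UMIs, control replicate 2 held 139 and *Angpt1*ΔNC held 89. EC4 was the highest label, with 0.109 and 0.388 UMIs per 10,000 in the controls from 2 and 4 positive cells, and 0 of 87 cells in *Angpt1*ΔNC, which allows up to 3.45%. No UMI was found in the T cells or in the epithelial class, whose 911 *Angpt1*ΔNC cells allow a share of up to 0.329%. In endothelial cells 9, 23 and 0 UMIs led to a call (adjusted p = 0.0216), but *Timp4* passed the filter through the controls alone, so the call says little. Against a floor of 3 counts, 0.0164 UMIs per 10,000 of the *Angpt1*ΔNC class, the pooled level was at least 3.37-fold lower than the mean of the controls, at least 2.15-fold lower than control replicate 1 and at least 4.58-fold lower than control replicate 2. With 2 and 5 positive cells of the control classes behind it, the call was lost in male-typed cells (adjusted p = 0.110), and DESeq2 returned no adjusted p. Stromal *Timp4*, at 23, 43 and 55 UMIs, was not called (log2 change 1.15, adjusted p = 0.0979).

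In myeloid cells edgeR called 0 of the 8 members tested, against 5.53% of 9883 genes, and 0 had an unadjusted p under 0.05. DESeq2 called 0 as well. *Mmp14* (0.935, 0.866 and 0.859 UMIs per 10,000) and *Timp2* (2.12, 2.19 and 2.09) were the members with the most UMIs there, and their log2 changes of 0.00 and 0.02 turned negative with library totals (−0.07 and −0.04).

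**Figure D3:**
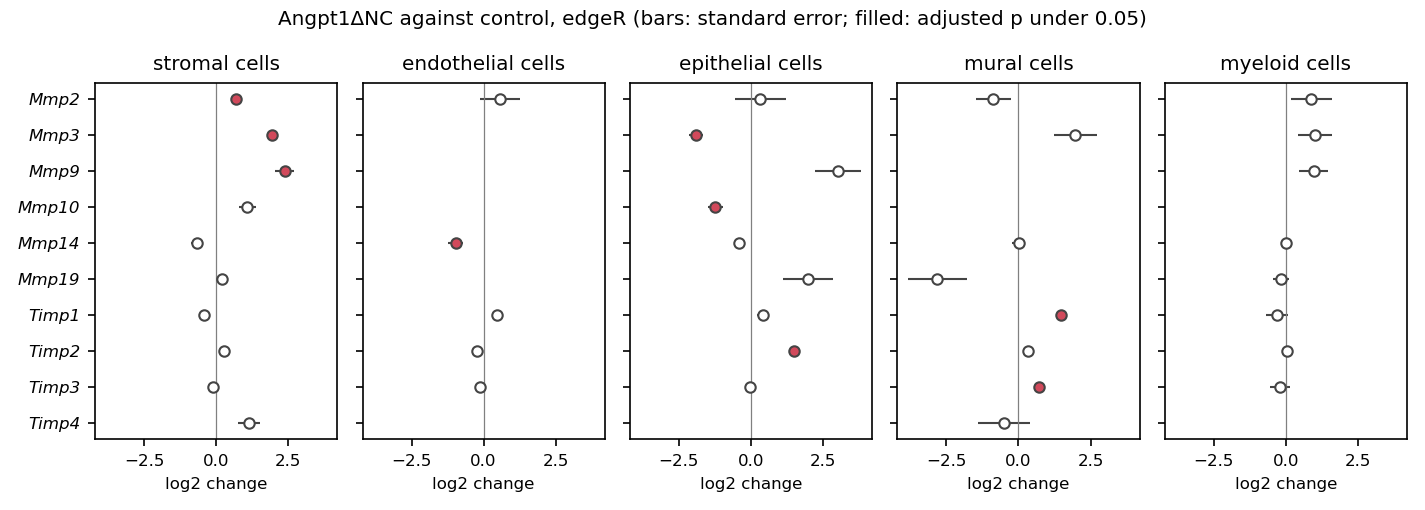
Log2 change of *Angpt1*ΔNC against control for the members tested in each of 5 classes, from edgeR fits over all genes, with standard errors as bars and filled points for an adjusted p under 0.05. Stromal *Mmp3* (1.94) and epithelial *Mmp3* (−1.90) lie on opposite sides of 0, and members with 0 UMIs in *Angpt1*ΔNC (endothelial *Timp4* and mural *Mmp9*) are left out.

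The members' patterns across the 34 labels differed from each other. Over log2 control levels, Pearson's r was 0.79 between *Mmp2* and *Mmp3*, 0.78 between *Mmp2* and *Timp2*, 0.66 between *Mmp14* and *Timp2* and −0.38 between *Mmp10* and *Timp2*. These values describe labels that share libraries and depth. Among 4826 genes, the most similar to *Mmp2* were *Apod* (0.97), *Col1a1* (0.96) and *Steap3* (0.95), and to *Mmp3* they were *Wisp2* (0.91), *Svep1* (0.87) and *Fam180a* (0.86). *Mmp10* was closest to *Il24* (0.86), *Epgn* (0.85) and *Tmprss11a* (0.83), with lower values in control replicate 2 alone (0.71, 0.69 and 0.72). *Mmp14* was closest to *Ch25h* (0.82), *Colec12* (0.82) and *Vcam1* (0.79), and *Mmp19* to *Vegfa* (0.83), *Pdgfra* (0.82) and *Itih2* (0.82).

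Among the inhibitors, *Timp1* was closest to *Ltbp4* (0.79), *Plod2* (0.78) and *Rcn3* (0.77), *Timp2* to *Copz2* (0.88), *9530068E07Rik* (0.87) and *Cpq* (0.86), and *Timp3* to *Sox4* (0.85), *Cd200* (0.84) and *Rhoj* (0.84). *Mmp9* and *Timp4* did not reach 1 UMI per 10,000 in any label and were left out. By position, *Timp1*, *Timp3* and *Timp4* share a feature, since each lies within a synapsin gene on the opposite strand, *Syn1*, *Syn3* and *Syn2*. Exons of *Timp3* and *Syn3* and of *Timp4* and *Syn2* overlap in the annotation. *Timp1* lies on chromosome X from 20870166 to 20874735, *Timp3* on chromosome 10 from 86300372 to 86349506 and *Timp4* on chromosome 6 from 115241892 to 115252205.

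The other members lie apart. *Mmp2* is on chromosome 8 from 92827291 to 92853420, *Mmp9* on chromosome 2 from 164940780 to 164955850 and *Mmp14* on chromosome 14 from 54431612 to 54445364. *Mmp19* is on chromosome 10 from 128790910 to 128800824, where its exons overlap the antisense gene *Gm47093* and *Tmem198b*, and *Timp2* is on chromosome 11 from 118301069 to 118355740, with *Cep295nl* inside an intron.

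Other genes of matrix proteolysis were read from lists of related families, and the called ones with the smallest adjusted p are named. Over all genes tested edgeR called 8.97% in stromal, 12.9% in endothelial, 5.72% in epithelial, 16.4% in mural and 5.53% in myeloid cells, and each count below is to be read beside these shares. Of 17 other MMPs, 9 were tested in stromal cells, with 1 called higher and 2 lower and a median log2 change of −0.76 against −0.01 for all genes. *Mmp27*, a gene of the *Mmp3* cluster on chromosome 9, rose (log2 change 2.83, from 0.0181 and 0.00569 to 0.0815 UMIs per 10,000). In TM11, its highest label in the controls, it was instead below both controls (0.0805, 0.148 and 0.0240). The membrane-bound *Mmp16* fell (−1.07). The epilysin *Mmp28* was called lower with 28, 46 and 5 UMIs, having passed the filter through the controls alone. In the endothelial, epithelial, mural and myeloid fits 2, 4, 5 and 4 other MMPs were tested and edgeR called 0.

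Among 18 tested genes that activate or restrain MMPs, 1 was higher and 3 were lower in the stroma, with a median of −0.03. *A2m*, a protease trap in blood and tissue fluid, went from 9.30 and 8.55 to 3.90 UMIs per 10,000 (log2 change −1.19, adjusted p = 0.00250), and *Serpine2*, a serine protease inhibitor, from 29.6 and 31.8 to 17.9 (−0.77). *Serpinb2*, an inhibitor of plasminogen activators, rose from a low level (2.77). The fourth, *Reck*, a membrane-anchored inhibitor of MMPs, was lower by −0.61 and is named after its values were seen, to complete the count.

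In the other classes the genes of this list moved in other ways. In endothelial cells 2 of 13 were higher and 2 lower (median −0.29), among them *Spock2*, higher with a log2 change of 2.27, and *Tfpi2*, lower with −1.44. In mural cells 2 of 16 were higher and 2 lower (median 0.06), among them *Plau*, the urokinase that generates plasmin, from 1.60 and 1.35 to 3.49 UMIs per 10,000 (1.44), and *Plat*, also higher (0.70). In myeloid cells 1 of 13 was higher, *Serpinb2* (0.97), and 2 were lower, among them *Plau* (−0.96), with a median of −0.27. In epithelial cells edgeR called 0 of 14 (median −0.23).

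The related ADAM and ADAMTS proteases, several of them inhibited by TIMP3, had 2 higher and 4 lower of 22 tested in the stroma, with a median of −0.18. *Adamts9* fell from 0.360 and 0.340 to 0.141 UMIs per 10,000 (log2 change −1.31) and *Adamts1* from 5.88 and 5.90 to 2.53 (−1.22), while *Adam33* rose (0.92). The other gene called higher, *Adamts16*, named after its values were seen, had 4, 6 and 23 UMIs and passed the filter through *Angpt1*ΔNC alone. In mural cells 3 of 15 were higher and 0 lower, *Adamts9* (1.18), *Adamts8* (1.86) and *Adamts4* (1.11), with a median of −0.21. In endothelial cells 1 of 11 was higher, *Adamts9* (0.82), and 3 were lower, among them *Adam19* (−1.79) and *Adam12*, which had 19, 30 and 3 UMIs and passed the filter through the controls alone, with a median of 0.01. In epithelial cells *Adam8* (1.76) and *Adamts1* (1.67) were the 2 called of 8, both higher (median 0.54), and in myeloid cells *Adamts1* was the 1 called of 9 (median −0.36), lower with 68, 66 and 8 UMIs after passing the filter through the controls alone.

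Of 8 cytokines known to induce or repress MMPs, 1 was called in stromal cells, *Lif*, from 1.44 and 1.90 to 3.25 UMIs per 10,000 (log2 change 0.96), with a list median of −0.10. In mural cells 2 of 7 were called, *Lif* (1.31) and *Il6* (0.47), both higher, with a median of 0.10. Within pericytes (cluster 20), its highest label and a larger part of the *Angpt1*ΔNC class, *Il6* was instead below both controls (22.9, 30.7 and 19.4 UMIs per 10,000). In the endothelial (4 tested), epithelial (8) and myeloid (7) fits edgeR called 0, with medians of −0.47, −0.50 and −0.40. Dissociation stress genes in the other classes were lower in 5 of 12 in mural cells, with *Fos* at −2.12 and sums of 156, 142 and 92.5 UMIs per 10,000, and in 2 of 12 in myeloid cells, with sums of 143, 97.5 and 102. In endothelial cells 2 were higher and 2 lower, with sums of 107, 90.4 and 95.4. The part of these changes in those of mural *Timp1* and *Timp3* was not tested.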

How the data were processed

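UMI counts of 31053 genes were deposited by the authors as raw counts, without normalization, made with Cell Ranger per the labels (version 2.1.1, while the matrix header names another) on mm10. The deposited labels and kept cells, filtered, cleared of doublets with scDblFinder and clustered with Seurat 3.1.3 by the authors, were used unchanged, and the deposited integrated values were not used. Barcodes and gene identifiers are deposited text of another kind. Members and gene lists were chosen with earlier results of these data known. Class sums were tested with edgeR 4.0.16 in R 4.3.3 (TMM, filterByExpr, quasi-likelihood F-test, Benjamini-Hochberg), which lends the spread of the controls to the single *Angpt1*ΔNC pool. A run on simulated counts gave all 3 libraries the same spread, so it could not test this assumption. The 15 class sums gave the difference between classes. Alternatives were DESeq2 1.42.0, library totals, no filter on low counts, equal cell numbers, male-typed cells (with Y-linked but no *Xist* UMIs), equal label weights and leaving out each control. Similar genes are the 3 with the highest Pearson correlation over labels of log2 control levels (0.1 added), among genes reaching 1 UMI per 10,000. From each list, at most 3 called genes per class are named, and some are not reported here. Levels, intervals and figures were made with Python 3.11.15, SciPy 1.17.1, pandas 2.3.3 and matplotlib 3.10.9.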

Additional observations from a re-analysis of the deposited data

Results flagged for a closer look

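The size of the genotype difference differed between the 5 cell classes for 4 of 10 members, against 10.3% of the 14414 genes tested, by the edgeR test of the interaction over 15 class sums with library and class as terms. The 15 sums come from 3 pools, those of *Angpt1*ΔNC from a single pool, so spread between *Angpt1*ΔNC animals is not in these p-values. *Mmp3* (adjusted p = 1.77e-07) was higher in stromal cells of *Angpt1*ΔNC, with a log2 change of 1.94, and lower in epithelial cells, with −1.90. *Mmp10* (adjusted p = 0.000493) was lower in epithelial cells (−1.24) and had 1.08 in stromal cells, where it was not called. In male-typed cells both epithelial calls were lost, with −1.11 for *Mmp3* (adjusted p = 0.0867) and −0.56 for *Mmp10* (adjusted p = 0.216). *Timp1* (adjusted p = 0.0148) was higher in mural cells (1.49) and had −0.42 in stromal cells, without a call. *Timp2* (adjusted p = 2.78e-05) was higher in epithelial cells (1.48) and had 0.26 in stromal and −0.24 in endothelial cells, neither called.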

How the results depend on the processing

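Of 189 member changes recomputed under 5 tested alternatives, 156 kept their direction and side of the threshold, 6 lost and 11 gained a call and 16 reversed. Of the 10 calls, 10 remained without a filter, 9 with library totals, 9 with equal cell numbers, 7 with DESeq2 and 6 in male-typed cells, and leaving out either control kept the sign in 20 of 20. *Timp4* in endothelial cells had no value with DESeq2 or equal cell numbers. Called genes numbered 2441 in stromal, 1814 in epithelial and 2595 in the difference between classes without a filter, 692 in stromal and 134 in myeloid cells with equal cell numbers, 465 in epithelial and 45 in myeloid cells with male-typed cells, 341 in epithelial cells with library totals, and 617, 238, 443, 505 and 71 in stromal, endothelial, epithelial, mural and myeloid cells with DESeq2. Male-typed cells reversed stromal *Mmp9* (−6.90, set by the prior count, with 0 UMIs in *Angpt1*ΔNC) and *Mmp19* (−0.0411), endothelial *Mmp2* (−0.0739) and *Timp3* (0.00117), epithelial *Timp3* (0.35), mural *Mmp14* (−0.17) and myeloid *Timp2* (−0.0391). Mural *Mmp14* also reversed with library totals (−0.19), no filter (−0.0395), equal cells (−0.0307) and DESeq2 (−0.00677), myeloid *Mmp14* with library totals (−0.0668), no filter (−0.0114) and DESeq2 (−0.00352), myeloid *Timp2* with library totals (−0.0444) and myeloid *Mmp19* with equal cells (0.0428), all near 0 and not called. The cause was not tested. Each of the 10 members kept its highest label under 3 other averagings, and 8 to 9 did without one control. The median share of positive cells in the highest label went from 72.1% to 47.1% after thinning, since fewer UMIs were read. The single *Angpt1*ΔNC pool, its female cells, nearly absent from the controls, and the shifted label mix cannot be told apart from genotype. No paired analysis was possible because the groups share only replicate number 1, which does not mark paired animals.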
